A study of Mus musculus with 45 samples.

Results

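The Rhox genes are a family of homeobox genes, which encode DNA-binding transcription factors, that lie side by side on the mouse X chromosome and are best known for their expression in the testis, epididymis, ovary and placenta. All genes whose symbol starts with Rhox were taken, 42 of 55401 annotated genes, of which 34 are protein-coding and 8 are pseudogenes. They span 1092 kb of chromosome X, from 37213804 to 38306028 in mm10 (GRCm38), and were grouped by number into subcluster alpha (Rhox1 to Rhox4, 27 genes), beta (Rhox5 to Rhox9, 8 genes) and gamma (Rhox10 to Rhox13, 7 genes). Rhox2, Rhox3 and Rhox4 are present as 9, 9 and 8 copies, pseudogenes included, and Rhox7 as 4. Rhox5, the founding member of the family, is known from trophoblast, Sertoli cells and the epididymis, Rhox6 and Rhox9 from the placenta and germ cells, and Rhox10 and Rhox13 from the male germ line. As background, most of the cluster is silent in somatic cells and its promoters are kept silent by DNA methylation, with histone H3K9 methylation as a further repressive mark. EHMT2 (also called G9a) places the dimethyl form of that mark together with EHMT1.

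RNA-seq was made from 45 libraries of mouse embryonic stem cells (mESCs) in 15 groups of 3. In EHMT2-dTAG mESCs, made from KH2 cells (F1 of C57BL/6J x 129S1), both Ehmt2 alleles carry a degron tag and an mCherry reporter, so that the degrader dTAG-13 removes the protein, while DMSO was the control. The time course (12 libraries, clones E2-17, E2-20 and E2-K71) held DMSO and dTAG-13 at 24 h and at 7 days, and the washout experiment (9 libraries, the same clone names) held DMSO for 15 days, dTAG-13 for 15 days, and 7 days of dTAG-13 followed by 8 days without it (Recovery). For the sorting experiment (12 libraries, numbered replicates, 200000 cells, low-input libraries), EHMT2-dTAG cells with a MERVL-GFP reporter, which lights up in cells that resemble the 2-cell embryo, received either DMSO or dTAG-13 over 72 h and were separated into GFP-negative mESCs and GFP-positive 2-cell-like cells (2CLCs). In the Dppa4 experiment (12 libraries), WTJ1 mESCs (WT) and DPPA4KO mESCs (KO), which were depleted of DPPA4 with CRISPR/Cas9, received DMSO or the EHMT1/2 inhibitor UNC0638 for 48 h, with 3 clonal lines in each group. DPPA4 is a chromatin protein that helps to switch on 2-cell-stage and germline genes. The stem cells were grown on mouse embryonic fibroblast feeders, so the libraries can hold some feeder RNA.

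Only the authors' mean over each group was used for the degron experiments (time course, washout and sorting), in normalized counts (reads divided by a library size factor), so these values have no SD and no test. For the Dppa4 experiment every library was used, with 8399885 to 12710949 reads on genes. The Dppa4 transcript had 700 to 920 normalized counts in WT DMSO, 726 to 775 in WT UNC0638 and 0 in all 6 KO libraries. The Ehmt2 transcript, whose protein and not RNA is the target of dTAG-13, had means of 616 and 609 normalized counts at 24 h and 622 and 582 at 7 days in DMSO and dTAG-13. Pluripotency markers were high throughout, with a summed level of 6 genes of 29700 to 76800 in the group means and 36600 to 56300 in the libraries of the Dppa4 experiment. The GFP-positive groups carried the 2-cell-like markers, with sums of 7 genes of 121000 (DMSO) and 171000 (dTAG-13) against 680 and 6440 in the GFP-negative groups.

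Promoter and coding sequences are shown first, because they set how far single copies can be told apart. They also show which of the promoters at hand hold CG sites, the sites of DNA methylation. RefSeq promoters (GRCm38.p6) matched 28 of the 42 genes, 22 in alpha, 1 in beta (Rhox5) and 5 in gamma. Rhox6 and Rhox9 were not among them. The RefSeq start lies 50234 bases from the GENCODE gene start for Rhox5, 11283 for Rhox3c and 4956 for Rhox3e. With these included, the 250 bases before the RefSeq start held 0 to 10 CG sites with a median of 4.5. The median was 6 over 32851 promoters, and 44.4% of all promoters held 4.5 or fewer. Promoters are given for the 5 genes that reach a mean of 20 normalized counts in some group and whose RefSeq start lies within 400 bases of the GENCODE gene start. This distance is 0 for Rhox1 and Rhox10 and 16 for Rhox2a and Rhox2e. For Rhox13 it is 379, so the bases next to its GENCODE start are not shown. All are on chromosome X, written 5′ to 3′ on the strand of the gene, with CG in capitals. They lie at chrX:37222259-37222508 (Rhox1, minus strand), chrX:37244742-37244991 (Rhox2a, plus), chrX:37530218-37530467 (Rhox2e, plus), chrX:38066225-38066474 (Rhox10, plus) and chrX:38120590-38120839 (Rhox13, plus).
Rhox1: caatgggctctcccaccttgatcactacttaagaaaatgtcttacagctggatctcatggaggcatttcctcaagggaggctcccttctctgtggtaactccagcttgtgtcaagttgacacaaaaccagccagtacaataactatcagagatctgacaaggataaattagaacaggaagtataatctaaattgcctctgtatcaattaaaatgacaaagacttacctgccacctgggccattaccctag
Rhox2a: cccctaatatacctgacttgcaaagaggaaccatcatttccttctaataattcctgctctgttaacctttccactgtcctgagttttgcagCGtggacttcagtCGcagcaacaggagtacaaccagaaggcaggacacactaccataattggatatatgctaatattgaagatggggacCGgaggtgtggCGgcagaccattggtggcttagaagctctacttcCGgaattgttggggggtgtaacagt
Rhox2e: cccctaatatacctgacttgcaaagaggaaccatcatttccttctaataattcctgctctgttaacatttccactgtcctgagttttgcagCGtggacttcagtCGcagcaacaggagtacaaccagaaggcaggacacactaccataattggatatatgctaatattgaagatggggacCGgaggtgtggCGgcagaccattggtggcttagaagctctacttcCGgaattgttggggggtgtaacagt
Rhox10: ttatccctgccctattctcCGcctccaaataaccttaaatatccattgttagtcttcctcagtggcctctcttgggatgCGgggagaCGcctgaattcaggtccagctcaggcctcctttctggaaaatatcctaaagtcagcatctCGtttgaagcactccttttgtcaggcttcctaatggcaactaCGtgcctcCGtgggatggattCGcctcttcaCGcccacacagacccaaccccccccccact
Rhox13: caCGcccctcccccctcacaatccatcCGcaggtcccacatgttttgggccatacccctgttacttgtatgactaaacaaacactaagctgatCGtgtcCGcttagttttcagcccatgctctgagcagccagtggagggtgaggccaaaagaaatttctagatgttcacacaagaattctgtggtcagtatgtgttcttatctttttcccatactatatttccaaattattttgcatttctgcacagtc

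The Rhox1 promoter had no CG site, those of Rhox2a and Rhox2e had 5 each, that of Rhox10 had 8 and that of Rhox13 had 4. Those of Rhox2a and Rhox2e differed at 1 of 250 positions (99.6% identity), and the promoters of the 7 Rhox2 copies in the table were 71.6% to 99.6% identical in pairs. The letters CACGTG (an E-box, the same on both strands) were found in 5 of 28 promoters, those of Rhox4a2, Rhox4b, Rhox4e, Rhox4f and Rhox4g, and in 6.02% of all promoters. GGCGGGA, searched on both strands, was found in the promoter of Rhox11-ps2 alone and in 9.75% of all promoters. These are matches of letters, not binding sites, and the CACGTG matches all come from copies of a single family.

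Coding sequences of the Rhox2 copies were 93.7% to 99.7% identical in pairs and those of the Rhox4 copies 98.2% to 100%. Of the distinct 100-base windows in the annotated transcripts of a copy, 10.7% to 90.9% (protein-coding Rhox2 copies) and 51.4% to 98.1% (Rhox4 copies) also occurred in a transcript of another gene. Reads with many places were put by the authors at 1 random place, so the copies are reliable as family sums rather than as single genes. Rhox1, Rhox5, Rhox10 and Rhox13 shared 0% of their windows with another gene, Rhox6 shared 6.81% and Rhox9 2.45%. The coding sequences of Rhox6 and Rhox9 (681 bases each) were 90.8% identical. They were identical over coding bases 167 to 316, and the gap-free stretch of 150 bases with the most differences (16), at coding bases 285 to 434, is shown because it carries the letters by which reads of this pair can be told apart, with the differing bases in capitals.
Rhox6: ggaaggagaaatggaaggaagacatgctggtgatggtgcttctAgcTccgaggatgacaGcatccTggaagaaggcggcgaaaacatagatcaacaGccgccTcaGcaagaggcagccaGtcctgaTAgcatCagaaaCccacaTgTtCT
Rhox9: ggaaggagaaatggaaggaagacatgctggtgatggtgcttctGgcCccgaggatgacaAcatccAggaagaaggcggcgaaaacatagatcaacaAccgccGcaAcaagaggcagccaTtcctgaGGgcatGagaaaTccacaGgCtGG

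In unperturbed mESCs, expression of the cluster came mainly from subcluster beta. In the control groups of the 3 degron experiments (DMSO at 24 h, 7 days and 15 days, and DMSO-treated GFP-negative cells) the beta genes held 85.6% to 95.5% of the summed Rhox level. Rhox5 alone held 33.1% to 68.3%. Per kb of exon, among the 8 genes that reached a mean of 20 in some group, Rhox5 was the highest in each of these groups, with 222, 202, 163 and 113 mean normalized counts per kb, followed by Rhox6 with 181, 37.2, 19.1 and 6.94, except that Rhox10 lay between them in GFP-negative cells with 9.8. Of the 42 genes, 17, 18, 17 and 14 had a mean above 0 in these groups. Rhox8, a gene of Sertoli cells, was listed at 0 in every group mean and every library, as were Rhox3c, Rhox3f, Rhox3g, Rhox3h, Rhox11-ps1 and Rhox11-ps3.

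**Figure D1:**
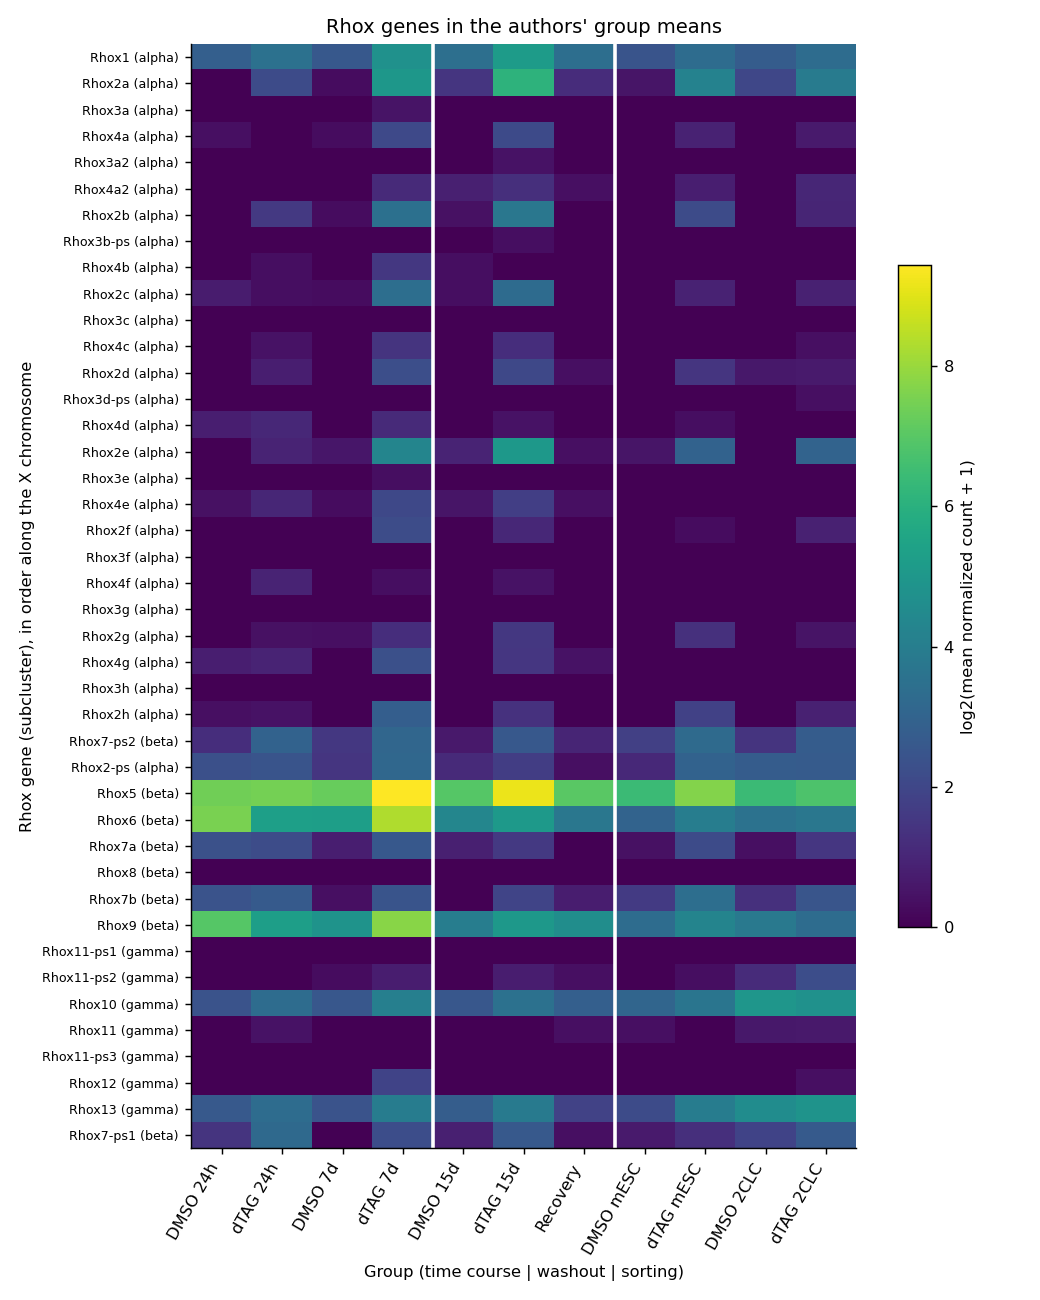
Each row is 1 of the 42 Rhox genes in order along the X chromosome with its subcluster, each column is a group, and the colour is log2 of the authors' mean normalized count plus 1. Rhox5, Rhox6 and Rhox9 are present in every group, while most Rhox2 and Rhox4 copies of subcluster alpha are near 0 in DMSO and Recovery. Most of these copies brighten with dTAG-13 at the later time of the time course and in the washout experiment. Rhox2a also brightens in the other dTAG-13 groups, where the Rhox4 copies stay low. The pseudogene Rhox2-ps is above 0 in every group.

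After 7 days without EHMT2 the Rhox genes were higher as a cluster. The summed mean of all 42 genes was 1410 normalized counts in dTAG-13 against 239 in DMSO, 5.9-fold higher. Alpha was 15.4-fold higher (135 against 8.75), beta 5.62-fold (1240 against 221) and gamma 3.58-fold (33.8 against 9.44). The beta sum was 484 in DMSO at 24 h, 2.19-fold that of DMSO at 7 days, so its ratio depends on the control. The mean was higher in dTAG-13 for 31 genes, lower for none, and 0 in both groups for the other 11. A gene was counted as measured where either mean reached 5 normalized counts, and as past 2-fold on the scale of log2 of the mean plus 1. By that count 14 genes were measured and 14 were higher, against 6.51% of 20549 genes that were higher and 5.25% that were lower. However, 10 of the 14 reached the minimum only in the dTAG-13 group and so could only be counted as higher. The 4 that reached it in both groups were Rhox1, Rhox5, Rhox6 and Rhox9.

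Among the beta genes at 7 days, Rhox5 had a mean of 691 normalized counts in dTAG-13 against 152 in DMSO, a log2 difference of 2.17. Rhox6 had 316 against 37.6 (3.04), and Rhox9, its near copy, had 214 against 27.9 (2.89). The 4 Rhox7 genes, of which 2 are pseudogenes, summed to 20.9 against 2.93. All beta families other than Rhox8 were thus higher.

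The 9 Rhox2 genes of subcluster alpha summed to 91.7 against 3.23 normalized counts, 28.4-fold higher, and all 9 had a mean above 0 in dTAG-13 against 6 of 9 in DMSO. The pseudogene Rhox2-ps held 7.81 and 1.71 of these sums. Rhox2a was listed at 30.9 against 0.242 and Rhox2e at 18.4 against 0.483, values that random placement of reads among the copies can shift. Rhox4, whose product has been tied to the differentiation of embryonic stem cells, summed to 16.5 against 0.483 over 8 copies, with no single copy above 3.96. The 9 Rhox3 genes stayed at a sum of 0.68 in dTAG-13 and were at 0 in DMSO. Rhox1, whose promoter holds no CG site in the sequence shown above, had 26.1 against 5.03, a log2 difference of 2.17.

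In subcluster gamma Rhox10, known for its role in spermatogonial stem cells, had a mean of 15.7 against 4.86 (1.51), and Rhox13 had 14.6 against 4.33 (1.55). Rhox12 was listed at 2.74 against 0. Rhox11 and its 3 pseudogenes summed to 0.687 against 0.242. Against the 7-day control, gamma was therefore the subcluster with the smallest ratio.

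Most measured genes that flank the cluster stayed within 2-fold. Of 24 protein-coding neighbours within 500 kb of the cluster, 17 were measured at 7 days, 1 was higher and none was lower, with a median log2 difference of 0.12. That neighbour was Gm9, at 8.02 against 1.21 normalized counts. Like 10 of the 14 Rhox genes, Gm9 reached the minimum only in dTAG-13. The other measured neighbours reached it in both groups, most of them at far higher levels, so the neighbours and the Rhox genes are not matched in level. Over the 542 measured genes of the X chromosome, 94 were higher and 12 lower, with a median of 0.13 against 0.01 for all genes. In the same comparison all 7 of the 2-cell-like markers were higher (sums of 5370 against 264), and 2 of 4 measured Xist and Y-linked genes (103 against 44.9). Their part in the Rhox values was not tested.

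**Figure D2:**
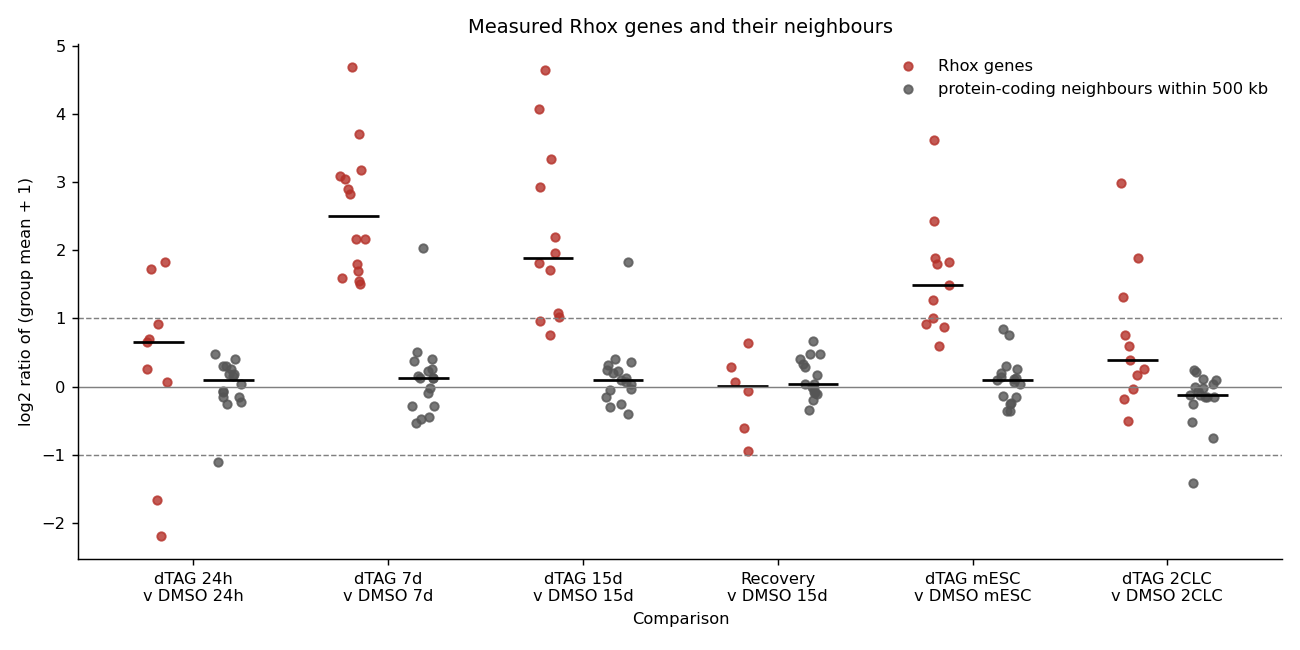
Each point is the log2 ratio of the authors' group means plus 1 for a measured Rhox gene (red) or a protein-coding neighbour within 500 kb (grey), black bars are medians, and dashed lines mark 2-fold. At 7 days the 14 Rhox genes lie between 1.51 and 4.68 while 16 of 17 neighbours lie within 2-fold. Of these Rhox genes, 10 reached the minimum mean only in dTAG-13 and so could only lie above 0.

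At 24 h the direction differed between members, and this depended on the control group. Rhox6 had 39.2 normalized counts in dTAG-13 against 183 in DMSO (a log2 difference of -2.19), and Rhox9 had 37.7 against 122 (-1.67). Rhox5 was level at 176 against 167 (0.07). In the other direction the Rhox7 genes summed to 24.1 against 11.4 and the Rhox2 genes to 12.5 against 4.85. The pseudogene Rhox2-ps held 4.41 and 3.89 of the Rhox2 sums. Rhox1 (10.4 against 6.24), Rhox10 (9.07 against 4.33) and Rhox13 (8.97 against 5.14) had log2 differences of 0.65, 0.92 and 0.7. Of 9 measured genes 2 were higher (the pseudogenes Rhox7-ps1 and Rhox7-ps2) and 2 lower (Rhox6 and Rhox9), against 4.56% of 20447 genes higher and 2.82% lower. Both pseudogenes reached the minimum mean only in dTAG-13 and so could only be counted as higher. Over all 42, the mean was higher in dTAG-13 for 21 and lower for 5. The 2-cell-like markers were 7 of 7 higher (1660 against 160), and their part was not tested.

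The DMSO control at 24 h stood apart for Rhox6 and Rhox9. Between the DMSO groups Rhox6 was 183 at 24 h and 37.6 at 7 days (log2 difference -2.25), and Rhox9 was 122 and 27.9 (-2.09), whereas Rhox5 was 167 and 152 (-0.14). Of 5 measured members these 2 were past 2-fold, both lower at 7 days, against 2.19% of 20105 genes lower and 1.27% higher. The dTAG-13 level of Rhox6 at 24 h was thus close to the DMSO level at 7 days, and the 24 h difference of Rhox6 and Rhox9 is of the same size as that between the controls. The 7-day ratios of Rhox6 and Rhox9 likewise rest on the lower of these 2 controls. Other genes differed in the same DMSO groups. Xist, the RNA that coats an inactive X chromosome, had 150 normalized counts in DMSO at 24 h against 0.242 in DMSO at 7 days, 1 in dTAG-13 at 24 h and 2.5 in dTAG-13 at 7 days. The 5 Xist and Y-linked genes together summed to 189 in DMSO at 24 h and 44.9 in DMSO at 7 days. Germ cell markers (6 genes) summed to 1900 in DMSO at 24 h and 1120 to 1360 in the other time-course groups. Feeder markers (7 genes) summed to 1620 in DMSO at 24 h and 1360 in DMSO at 7 days. Of 6 measured feeder markers, 2 were past 2-fold lower at 7 days and 0 higher. The DNA methyltransferase genes Dnmt3b and Dnmt3a had 562 and 853 in DMSO at 24 h and 1200 and 1390 in DMSO at 7 days. The part of these differences in the Rhox values was not tested, and with group means alone a single library cannot be told apart from all 3.

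Markers of trophoblast, in which Rhox5, Rhox6 and Rhox9 are known to be active, were lower in sum at 24 h and higher at 7 days in dTAG-13, as Rhox6 and Rhox9 were, while Rhox5 was level at 24 h. The 7 trophoblast markers summed to 1710 and 1160 normalized counts in DMSO at 24 h and 7 days and to 911 and 2020 in dTAG-13. At 7 days, 4 of 6 measured markers were higher in dTAG-13 and none lower, with Krt8 at 670 against 224, Krt18 at 590 against 217, Gata3 at 16.9 against 4.77 and Cdx2 at 5.31 against 0.571. Within 2-fold were Eomes at 59 against 112 and Tfap2c at 676 against 596, and the defining marker Elf5, at 4 against 2.18, was under the minimum. At 15 days none of 6 was past 2-fold, and the sums were 1150 (dTAG-13) and 1310 (DMSO). The part of trophoblast-like cells in the Rhox values was not tested. In such bulk samples, fewer cells that express a gene and less RNA per cell cannot be told apart.

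After 15 days without EHMT2, Rhox5 and the Rhox2 genes had about the same ratio as at 7 days, whereas Rhox6 and Rhox9 did not. All 42 genes summed to 849 normalized counts in dTAG-13 against 186 in DMSO (4.56-fold), and the mean was higher for 29 and lower for 1, Rhox4b. Of 12 measured genes 10 were higher and none lower, against 6.72% of 19685 genes higher and 1.11% lower, and 7 of the 12 reached the minimum only in dTAG-13. Rhox5 had 567 against 123 (2.2), and the Rhox2 genes summed to 130 against 4.49, 29-fold higher. Rhox2a had 67.9 against 1.77 and Rhox2e 31.4 against 0.934. Rhox1 had 35.1 against 10 (1.71) and the Rhox7 genes 15 against 2.1.

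Rhox6 had 33.4 against 19.3 (0.76) and Rhox9 31.3 against 15 (1.02) at 15 days. In gamma, Rhox10 had 10.6 against 4.96 (0.96) and Rhox13 13.7 against 5.95 (1.08). These 4 genes lie near 2-fold, just inside or outside it. The Rhox5 ratio was 4.53 at 7 days and 4.61 at 15 days, and the Rhox6 ratio 8.4 and 1.73. The difference between the times was not tested, since the 2 experiments were normalized separately and have no replicate values here. Of the neighbours, 17 were measured at 15 days and 1 was higher, again Gm9 (5.29 against 0.766). All 7 of the 2-cell-like markers were higher in dTAG-13 (sums of 9430 against 442). Genes of the sex chromosomes also differed between these groups, 4 of 5 being higher in dTAG-13 (sums of 397 against 157), with Ddx3y on the Y chromosome at 70.5 against 2.26 and Xist at 242 against 148. Their part in the Rhox values was not tested.

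After 8 days without dTAG-13, following 7 days with it, the cluster was back near the DMSO level. The Recovery group had a summed Rhox mean of 189 normalized counts, against 186 in DMSO and 849 in dTAG-13. Against DMSO, none of 6 measured members was past 2-fold in either direction, where 2.14% of 19108 genes were higher and 1.52% lower. Rhox5 had 129 against 123 (0.07) and Rhox1 9.58 against 10 (-0.06). The Rhox2 genes summed to 2.18 against 4.49. Rhox13, at 2.63 against 5.95 (-0.94), and Rhox9, at 23.9 against 15 (0.64), were the furthest from DMSO.

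Against continued dTAG-13, 10 of 12 measured members were lower in Recovery and none higher, where 8.11% of 19728 genes were lower and 1.78% higher. Of the 12, 7 reached the minimum only in dTAG-13 and so could only be counted as lower. The Rhox2 genes were 59.8-fold lower (2.18 against 130) and Rhox5 was 4.4-fold lower. Rhox6 had 12.3 against 33.4 (-1.37), Rhox9 23.9 against 31.3 (-0.38) and Rhox10 6.22 against 10.6 (-0.68). Rhox9 and Rhox10 were the measured members that stayed within 2-fold of the dTAG-13 group. Both comparisons share the Recovery libraries. The 7 feeder markers summed to 963 in Recovery against 3290 in dTAG-13 and 2450 in DMSO, 5 of 6 measured ones being past 2-fold lower than in dTAG-13 (4 of 6 lower than in DMSO), and the 2-cell-like markers summed to 723 against 9430 in dTAG-13 (7 of 7 lower). Primitive endoderm markers were 4 of 6 lower than in dTAG-13 (339 against 645), and Xist and Y-linked genes 3 of 4 higher than in DMSO (212 against 157, Ddx3y 53.9 against 2.26). The part of these differences in the Rhox values was not tested.

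**Figure D3:**
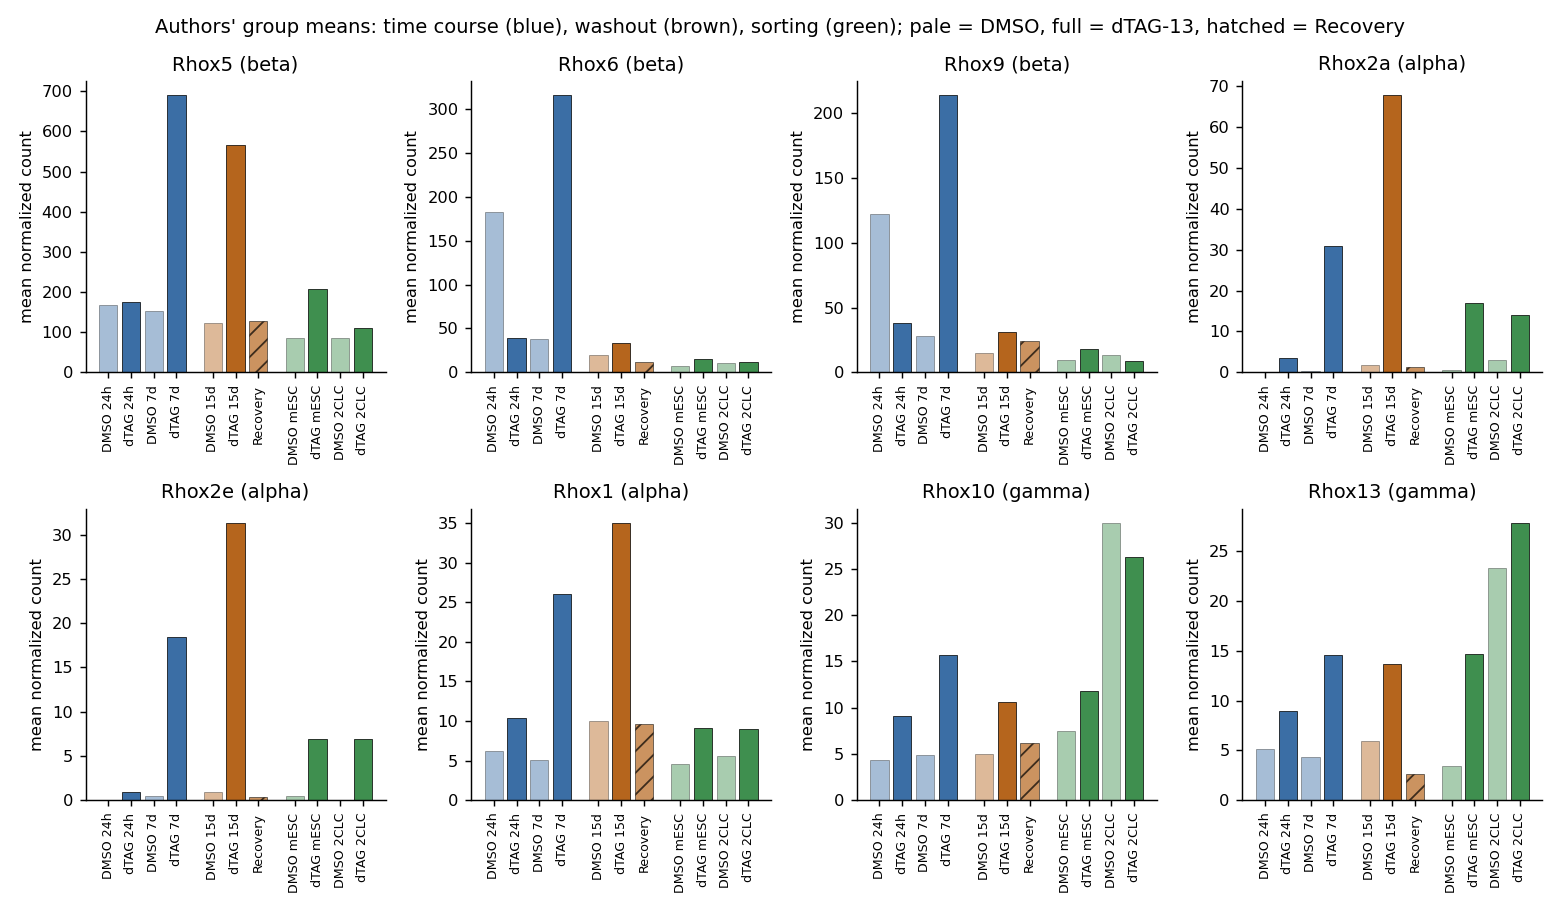
Bars give the authors' mean normalized count (linear axis from 0, no error because only group means were used) of the 8 Rhox genes that reach a mean of 20 in any group, by group in the time course, washout and sorting experiments. Rhox5, Rhox2a, Rhox2e and Rhox1 are high in dTAG-13 at 7 and 15 days and low in Recovery, Rhox6 and Rhox9 are high in DMSO at 24 h and in dTAG-13 at 7 days, and Rhox10 and Rhox13 are highest in 2CLCs.

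The sorting experiment asked how loss of EHMT2 acts in cells inside and outside the 2-cell-like state. In GFP-negative mESCs after 72 h, all 42 genes summed to 342 normalized counts in dTAG-13 against 125 in DMSO (2.75-fold), with a higher mean for 23 genes and a lower one for 1. Of 11 measured genes 8 were higher and none lower, against 7.41% of 19472 genes higher and 3.23% lower, and 7 of the 11 reached the minimum only in dTAG-13. Rhox5 had 207 against 85.1 (1.27), and the Rhox2 genes summed to 41.2 against 2.06, of which Rhox2a had 17 against 0.466. The Rhox7 genes summed to 23.1 against 5.44. Rhox13 had 14.7 against 3.46 (1.82), Rhox6 15 against 7 (1), Rhox9 18.2 against 9.2 (0.91), Rhox1 9.17 against 4.52 (0.88) and Rhox10 11.8 against 7.48 (0.59). Although GFP-positive cells were sorted out, the DMSO-treated GFP-negative group carried 2-cell-like markers at a sum of 680 and the dTAG-13 group at 6440 (7 of 7 higher). Feeder markers summed to 661 in dTAG-13 against 339 in DMSO (4 of 5 measured higher), and trophoblast markers to 742 against 1160 (3 of 5 lower). The part of these cells in the Rhox values was not tested.

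In 2CLCs the effect of dTAG-13 was smaller on these means. The summed Rhox level was 251 against 185 (1.36-fold), and 3 of 11 measured genes were higher and none lower, against 6.73% of 20934 genes higher and 4.7% lower. These were Rhox2a (14 against 3.06), Rhox2e (6.96 against 0) and the pseudogene Rhox7-ps2 (5.71 against 1.69), and all 3 reached the minimum only in dTAG-13, so that they could only be counted as higher. The Rhox2 genes summed to 30.9 against 9.28. Of these sums the pseudogene Rhox2-ps, which shared 0% of its windows with another gene, held 5.51 and 5.71. Rhox5 was 111 against 84.7 (0.39), Rhox6 12.3 against 10.8 (0.17), Rhox9 9.08 against 13.2 (-0.5) and Rhox1 9.02 against 5.63 (0.6). Feeder markers summed to 1540 against 915 (4 of 5 measured higher), and their part was not tested. The difference of the dTAG-13 effect between mESCs and 2CLCs was not tested.

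Between the cell states, the largest differences among measured members were those of Rhox10 and Rhox13 in DMSO. In DMSO, Rhox10 had 30 normalized counts in 2CLCs against 7.48 in mESCs (1.87), and Rhox13 had 23.3 against 3.46 (2.45). They and the pseudogene Rhox2-ps (5.71 against 1.13) were the 3 of 7 measured members past 2-fold, all higher, where 19.0% of 20783 genes were higher and 9.61% lower. Rhox13 and Rhox2-ps reached the minimum only in 2CLCs and so could only be counted as higher. Rhox5 was 84.7 against 85.1 (-0.01), Rhox6 10.8 against 7 (0.56) and Rhox9 13.2 against 9.2 (0.48). Gamma held 29.8% of the summed Rhox level in DMSO-treated 2CLCs against 9.03% in mESCs. Genes higher in 2CLCs were thus common. The share of 3 of 7 members lies above that background but rests on few genes, of which Rhox10 alone reached the minimum in both states.

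In dTAG-13, Rhox10 was 26.3 in 2CLCs against 11.8 in mESCs (1.09) and Rhox13 27.9 against 14.7 (0.88). Of 12 measured members 2 were higher in 2CLCs (Rhox10 and Rhox7-ps1) and none lower, where 17.4% of 20789 genes were higher and 8.54% lower. Rhox7-ps1 reached the minimum only in 2CLCs. A share of members near this background is not particular to the cluster. Rhox5 was 111 against 207 (-0.89), Rhox9 9.08 against 18.2 (-0.93) and Rhox7b 4.6 against 9.5 (-0.91). The Rhox2 genes summed to 30.9 and 41.2. Of 15 germline genes known to depend on promoter methylation, 8 of 14 measured were higher in 2CLCs in each treatment and none lower, among them Dazl, an RNA-binding protein of germ cells, at 961 against 132 in DMSO. Feeder markers summed to 915 in 2CLCs against 339 in mESCs in DMSO, and to 1540 against 661 in dTAG-13. Primitive endoderm markers summed to 386 against 172 and 522 against 198, and pluripotency markers to 29700 against 47300 and 31000 against 41500. Their part in the Rhox values was not tested.

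The silencing machinery itself and other methylation-dependent germline genes mostly stayed within 2-fold when EHMT2 was removed. Of 17 genes of DNA methylation, H3K9 methylation and the germline-promoter repressor PRC1.6, all were measured and none was past 2-fold at 7 days, at 15 days, or with dTAG-13 in either sorted population, and 1 was higher at 24 h. That gene was Dnmt3a, a de novo DNA methyltransferase, at 1730 against 853. This difference depends on the DMSO control at 24 h, since Dnmt3a had 1390 in DMSO at 7 days. Of the 15 germline genes, 1 was higher at 7 days and 1 at 15 days, Asz1 each time (8.31 against 0.989, and 8.53 against 0), and none was lower at these times. At 24 h 1 of 14 measured was lower (Tex101, 6.46 against 17.6), and with dTAG-13 in 2CLCs 1 of 14 was higher (Asz1, 13 against 5.17). Dazl had 193 against 175 at 7 days.

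In the Dppa4 experiment, Rhox5, Rhox6 and Rhox9 were lower in DPPA4KO cells than in WT cells. Rhox5, Rhox6, Rhox9 and Rhox10 passed the filter on low counts, 4 of 42 members among the 17258 genes tested, and 11 of the 42 members had no read in any of the 12 libraries. Significance was taken from limma as a Benjamini-Hochberg adjusted p under 0.05 with at least a 2-fold change, on log2 of the normalized count plus 1. In DMSO, Rhox5, Rhox6 and Rhox9 were lower in KO than in WT and Rhox10 did not pass the test, where 3.1% of all genes tested were lower and 1.33% higher. Rhox6 and Rhox9 passed the filter through the WT libraries alone, so between the genotypes they could only be called lower in KO.

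Rhox5 had 32.6, 59 and 94.4 normalized counts in the WT DMSO libraries and 1.96, 8.15 and 3.48 in KO DMSO, with means of 62 ± 31 and 4.53 ± 3.23 (SD, n = 3 each). The groups did not overlap. The log2 fold change was -3.54 (SE 0.53, limma adjusted p = 0.00144), 13.7-fold lower in KO.

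Rhox6 had 31.4, 36.9 and 53.3 in WT DMSO (40.5 ± 11.4, SD, n = 3) and no read in any KO DMSO library. With the KO group taken as 3 reads over its libraries (1.05 normalized counts), it was at least 38.7-fold lower (log2 fold change -5.34, SE 0.73, limma adjusted p = 0.000677). Rhox9 had 15.1, 14.8 and 11.4 in WT DMSO (13.7 ± 2.07, SD, n = 3) and no read in KO DMSO, at least 13.1-fold lower (-3.87, SE 0.83, limma adjusted p = 0.0129). Without the WT DMSO library of replicate 2, the adjusted p of Rhox9 was 0.0522.

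Rhox10 had 6.98, 11.1 and 15.7 in WT DMSO and 6.85, 11.2 and 4.64 in KO DMSO. The groups overlapped, and the log2 fold change was -0.53 (95% interval -1.98 to 0.93, limma adjusted p = 0.69), an interval that still allows a change of more than 2-fold.

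With UNC0638, Rhox5 rose in KO cells. It had 29.4, 82.8 and 50.6 normalized counts in KO UNC0638 (54.3 ± 26.9, SD, n = 3) against 1.96, 8.15 and 3.48 in KO DMSO. All 3 treated libraries lay above all 3 controls, and the mean was 12-fold higher (log2 fold change 3.36, SE 0.53, limma adjusted p = 0.0164). This was the 1 call among the 4 tested members, where 0.411% of genes tested were higher and 0.0521% lower. It was lost without the KO DMSO library of replicate 1 (2.99, adjusted p = 0.057) or without the KO UNC0638 library of replicate 2 (3, adjusted p = 0.126).

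Rhox10 had 9.2, 65.6 and 27.9 in KO UNC0638 (34.2 ± 28.7, SD, n = 3), spread over a wide range and overlapping KO DMSO. Its log2 fold change was 1.73 (95% interval 0.27 to 3.18, limma adjusted p = 0.235). Rhox6 had 5.52, 0 and 1.75, 8 reads in all against none in KO DMSO, and Rhox9 had no read in either KO group. The sum of the Rhox2 genes, too low for the test, was 10.1, 7.53 and 3.49 in KO UNC0638 (22 reads) and 0 in each KO DMSO library.

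In WT cells no member was called after UNC0638. Rhox5 had 76.6, 164 and 176 normalized counts in WT UNC0638 (139 ± 54.3, SD, n = 3) against 32.6, 59 and 94.4 in WT DMSO, with 1 treated library inside the range of the controls. The numbers pair these libraries, and in each of the 3 pairs the treated library was higher. Its log2 fold change was 1.19 (95% interval 0.06 to 2.31, limma unadjusted p = 0.0396, adjusted p = 0.563), and with the replicate number within genotype as a block the limma adjusted p was 0.372. Rhox6 was at 28.2, 56.1 and 53.5 (0.15, adjusted p = 0.959), Rhox9 at 9.69, 29 and 16.8 (0.29, adjusted p = 0.924) and Rhox10 at 13.2, 9.34 and 31.1 (0.52, adjusted p = 0.81), all by limma. No gene of the 17258 was called in this comparison (0.0% in each direction), although 1504 had an unadjusted p under 0.05. edgeR also called 0 and DESeq2 called 14 (13 higher, 1 lower), none of them a Rhox gene.

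Some low members showed more reads after the inhibitor, and others did not. The Rhox2 genes summed to 0, 1.23 and 2.62 normalized counts in WT DMSO (4 reads) and to 7.04, 16.8 and 30.3 in WT UNC0638 (64 reads), without overlap. Rhox2a, whose promoter is shown above, had no read in WT DMSO and 2.64, 10.3 and 13.6 in WT UNC0638. Rhox1 had 1.16, 7.38 and 2.62 against 7.04, 12.1 and 12.8, and Rhox13 0, 4.92 and 5.24 against 12.3, 12.1 and 4.79, both with overlap. The Rhox4 genes summed to 0, 1.23 and 0 against 1.76, 7.47 and 4.79. None of these is a test, and they were chosen by level and family. Among low members that did not rise, Rhox12 had 5 reads in WT DMSO and 0 in WT UNC0638, and Rhox7b had 4 and 3. The share of all low genes that rose was not counted.

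The effect of UNC0638 on Rhox5 was 2.18 log2 units larger in KO than in WT (SE 0.75, limma unadjusted p = 0.0102, adjusted p = 0.775), which did not pass the test. No gene passed it (0.0% in each direction), 1076 having an unadjusted p under 0.05, and edgeR and DESeq2 also called 0. With UNC0638 present, Rhox6 and Rhox9 were lower in KO than in WT, where 2.31% of genes tested were lower and 0.973% higher. Both had passed the filter through the WT libraries alone and could only be called lower. Rhox6 was 19-fold lower (-4.1, SE 0.73, limma adjusted p = 0.0051) and Rhox9 at least 19.5-fold lower (-4.16, SE 0.83, limma adjusted p = 0.0105). The Rhox9 call was lost without WT UNC0638 replicate 2 (adjusted p = 0.0755) or replicate 3 (adjusted p = 0.0514). Rhox5 did not pass (-1.37, 95% interval -2.49 to -0.25, limma adjusted p = 0.154), nor did Rhox10 (0.69, 95% interval -0.77 to 2.14, adjusted p = 0.616).

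**Figure D4:**
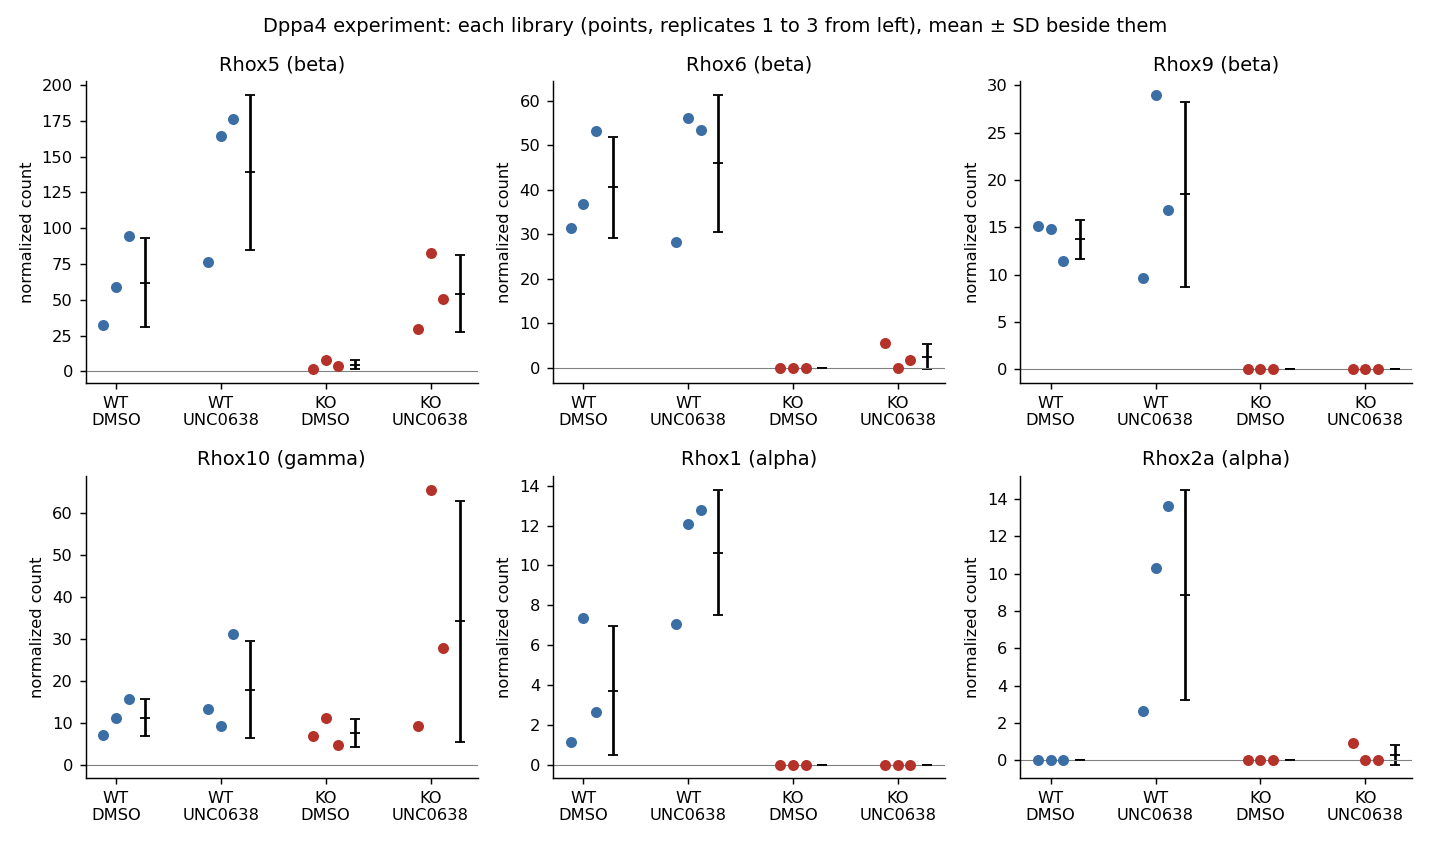
Points are normalized counts in each library of the Dppa4 experiment (WT blue, KO red, replicates 1 to 3 from left), with the mean ± SD (n = 3) beside them. Rhox6, Rhox9 and Rhox1 are at or near 0 in all KO libraries, while Rhox5 in KO runs from 1.96 to 8.15 in DMSO and from 29.4 to 82.8 with UNC0638.

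The neighbours of the cluster were not called in these comparisons. Of 24 neighbours 16 were tested, and none passed in any of the 5 comparisons, with median log2 differences of -0.36 (KO against WT in DMSO) and -0.38 (in UNC0638), where the medians of all genes were -0.03 and -0.04. The neighbour furthest from WT was Slc25a43, named after its values were seen, with means of 0.992 in KO DMSO against 13.4 in WT DMSO (-2.87, limma adjusted p = 0.0745) and no read in KO UNC0638 against 8.07 in WT UNC0638 (-2.96, limma adjusted p = 0.0826). Among the methylation-dependent germline genes, 3 of 9 tested were lower in KO in DMSO and none higher, where the median of the 9 was -1.24. They were Dazl (-3.65, limma adjusted p = 0.0176), Ddx4, a germ cell helicase (-4.1, adjusted p = 0.00671) and Mael, a factor of the piRNA pathway (-4.66, adjusted p = 0.0055). These 3 genes also passed the filter through the WT libraries alone and so could only be called lower. Of the 17 silencing genes Dnmt3b was lower (-1.09, limma adjusted p = 0.0287) and none higher.

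Markers of other cells also differed with the genotype. The 7 2-cell-like markers summed to 62.8 to 1210 normalized counts in WT DMSO, 471 to 4460 in WT UNC0638 and 0 in every KO library. Trophoblast markers summed to 899 to 1850 in WT DMSO and 463 to 783 in KO DMSO, feeder markers to 1830 to 2630 and 1020 to 1380, and germ cell markers to 554 to 727 and 390 to 583. Of 3 tested genes of the sex chromosomes, Y-linked Eif2s3y was lower in KO in DMSO (-3.37, limma adjusted p = 0.0493) and in UNC0638 (-4.09, limma adjusted p = 0.0268). Their part in the lower Rhox levels was not tested. WT and KO are also separate lines, although the study names J1 as the parental cells. Differences between lines and the genotype therefore cannot be told apart.

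The genes whose pattern was most like that of Rhox6 over the 12 libraries were Cdcp1, Mov10l1, Hpn, Trim52 and Ddx4, with Pearson correlations of log2 values of 0.977, 0.973, 0.973, 0.966 and 0.964. For Rhox9 they included Gm5501, Gm14058, Dppa4 itself and Clca3b (0.987, 0.986, 0.986 and 0.981). The 12 points share 2 genotypes, and any gene that is absent in KO and present in WT has a high value here, so these correlations describe the genotype split.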

How the data were processed

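RNA was measured by bulk RNA-seq in 45 libraries of mouse embryonic stem cells. According to the study's methods, the authors trimmed reads with Trim Galore 0.6.7, aligned them to mm10 with STAR 2.7.10 without introns, placed reads with many sites at 1 random site, counted genes of GENCODE vM25 with TE Counts at default settings, and divided counts by DESeq2 1.34.0 size factors computed over genes and repeats. The deposited signal columns are these normalized counts, as group means for 3 experiments and per library for the Dppa4 experiment. The authors' fold changes and p-values, which fill further tables, were not used, nor were the repeat tables.

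Members were matched by gene ID in all tables, and coordinates and exon lengths come from GENCODE vM21 on GRCm38. Members and lists were chosen with earlier results of these data known. The Rhox genes given one by one are those that passed the filter in the Dppa4 experiment or reached a mean of 20 in any group.

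Group means were compared as log2 ratios of the mean plus 1, without a test, where either mean was at least 5. Libraries of the Dppa4 experiment (whole reads recovered in 100% of values, within 0.02 of a read) were fitted with limma 3.58.1 (trend, 4 groups) on log2 of the value plus 1, after the edgeR 4.0.16 expression filter, in R 4.3.3, with Benjamini-Hochberg adjustment over 17258 genes. The scripts were tested on simulated data. Replicate numbers paired the WT libraries (correlations of deviations 0.246, 0.103 and 0.431 between DMSO and UNC0638) but not the KO libraries (0.154, -0.092 and 0.013). Libraries of a group differed by more than counting error, and p-values measure the spread between the 3 libraries of a group. Alternatives were edgeR and DESeq2 1.42.0 on recovered reads, other pseudocounts, filters, scalings, minimum means, a replicate block and leaving out each library. Counting floors cover counting error only. A gene among those most like Rhox9 is not reported here.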

Additional observations from a re-analysis of the deposited data

How the results depend on the processing

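Group means have no replicate spread, and counts of members past 2-fold moved with the minimum mean because most members are low. With a minimum mean of 1 in place of 5 the counts were 26 at 7 days, 19 at 15 days, 21 for Recovery against dTAG-13, 13 for dTAG-13 in mESCs, 7 in 2CLCs, 6 for 2CLCs against mESCs in DMSO, 4 (3 higher, 1 lower) in dTAG-13 and 5 for DMSO at 7 days against 24 h. With a minimum of 20 they were 5 at 7 days, 5 at 15 days, 5 for Recovery against dTAG-13, 2 at 24 h (both lower), 1 for dTAG-13 in mESCs, 0 in 2CLCs and 1 for 2CLCs against mESCs in dTAG-13. A pseudocount of 5 gave 6 at 15 days, 5 in mESCs and 0 for 2CLCs against mESCs in dTAG-13, and a pseudocount of 0.5 gave 1 (Rhox13, lower) for Recovery against DMSO. No member past 2-fold reversed its direction under these settings.

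In the Dppa4 experiment, KO against WT in UNC0638 gave 4 calls without a filter on low counts (31 members tested) and 1 to 2 when each library was left out, 1 without WT UNC0638 replicate 2 or 3. UNC0638 against DMSO in KO gave 0 to 1, with 0 without KO DMSO replicate 1 or KO UNC0638 replicate 2. With the replicate number as a block, Rhox5 was also called lower in KO against WT in UNC0638 (-1.37, limma adjusted p = 0.0457, 3 calls in place of 2), and the block changed no other Rhox call. For UNC0638 in KO, the calls over all genes were 71 higher and 9 lower by limma, 144 and 28 with the block, 32 and 5 by edgeR and 234 and 43 by DESeq2. Across genotypes and in KO the numbers did not pair the libraries. At 8399885 to 12710949 reads per library, 38 of 42 members were too low to test.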
